A study of Homo sapiens with 15 samples.

Results

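A cluster of 8 zinc finger genes on the short arm of chromosome 16 (band 16p13.3) was examined for MPP8 peaks in K-562 cells lacking TASOR and in K-562 cells lacking TASOR2. The genes are ZNF205, ZNF213, ZNF200, ZNF263, ZNF75A, ZSCAN32, ZNF174 and ZNF597, 8 of 20037 annotated protein-coding genes, and they span chr16:3112586-3443504 on hg38 (330.9 kb). They were chosen by their position and because both peak lists place peaks in this cluster, so the presence of peaks is a description and supports nothing further. K-562 is an established line of chronic myeloid leukaemia origin, labelled as lymphoblast. Each knockout was made with CRISPR/Cas9 from sorted cells grown as single colonies, and 1 library per genotype was used, precipitated with the same antibody to MPP8. The labels do not say which vector, if any, these cells carried. The other 13 of the 15 samples were not used here, among them input, unedited cells and the MPP8 precipitation from cells lacking MPP8. The peak signal that is not due to MPP8 was therefore not measured, and no expression values were at hand to set the cell type against its markers.

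MPP8 carries a chromodomain that binds histone H3 methylated at lysine 9, and it works in the human silencing hub (HUSH) with the scaffold TASOR and with periphilin. HUSH keeps LINE-1 elements and other invading DNA silent, and its paralog TASOR2 forms a related complex. Zinc finger genes of the C2H2 class lie in clusters that arose by duplication, encode DNA-binding proteins that often silence transposable elements, and are themselves known to carry methylated H3 lysine 9, mostly over their 3′ parts where the fingers are encoded. On 16p13.3, ZNF213, ZNF263, ZSCAN32 and ZNF174 encode proteins with a SCAN domain, which mediates dimerisation. ZNF205 and ZNF75A encode KRAB-type proteins, the class that recruits the corepressor TRIM28, and ZNF597 is an imprinted gene.

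TASOR KO peaks lay over the starts of genes, with 3 more in 3′ parts, and TASOR2 KO peaks lay in 3′ parts only. Of the 8 genes, 6 had a TASOR KO peak in the body or within 5 kb (ZNF200, ZNF263, ZNF75A, ZSCAN32, ZNF174 and ZNF597). Of all protein-coding genes 1.23% did, and of 545 ZNF, ZSCAN and ZKSCAN genes 12.8%. A TASOR2 KO peak was found at 4 of the 8 (ZNF263, ZNF75A, ZSCAN32 and ZNF174), against 1.03% of protein-coding and 16.5% of the zinc finger genes. Those 4 genes had peaks of both lists, which 0.185% of protein-coding genes and 5.32% of the zinc finger genes had. Since both lists' peaks here were the reason for the choice, nothing is read from these shares. ZNF205 and ZNF213 had no peak in either list: the nearest TASOR KO peaks lay 102999 bp and 80712 bp away, and the nearest TASOR2 KO peaks 171885 bp and 149598 bp away. With 1 library per genotype there is no replicate error and no test. What follows compares 2 lists.

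**Figure D1:**
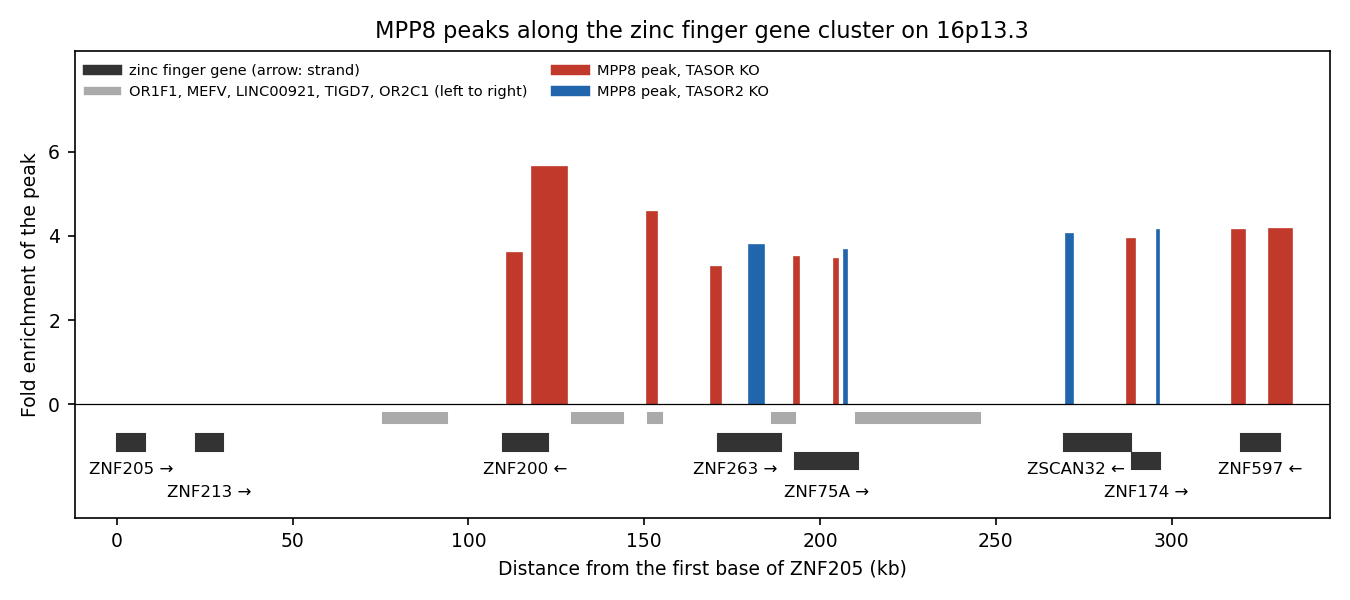
Peaks drawn by position (x axis, distance from the first base of ZNF205 in kb) and by the fold enrichment that the authors' peak caller gave (y axis), with genes below the axis. Red bars are the 9 TASOR KO peaks and blue bars the 4 TASOR2 KO peaks, and no red bar overlaps a blue one.

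The span from ZNF205 to ZNF597 held 9 TASOR KO peaks, of the 12 that this list has on chromosome 16 (75%) and of 427 in all. For TASOR2 KO it held 4 of 10 on the chromosome (40%) and of 264 in all. Fold enrichment and q are values of the authors' peak caller, used here to describe peaks and to rank them by q within a list. The peaks covered 35.2 kb and 7.86 kb. TASOR KO peaks were 1241 to 9968 bp wide here (median 3030 bp, against 1929 bp over that list), and TASOR2 KO peaks 774 to 4213 bp (median 1436 bp, against 1881.5 bp). Depth per library is unknown, so widths and numbers of peaks cannot be set on a common scale between the lists.

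The strongest peak of the cluster lay over the start of ZNF200, a zinc finger gene transcribed from the minus strand (gene ID 7752, chr16:3222325-3235158). It ran from 3230530 to 3240497 in TASOR KO (9968 bp), with a fold of 5.63 and a −log10 q of 10.8, and it ranked 2 of 427 by q. It began 5.34 kb upstream of the start and ended 4.63 kb into the gene. A second TASOR KO peak (3223516 to 3227726, fold 3.60, rank 169) lay in the 3′ part of the gene, 1191 bp short of the transcript end. Together they covered 68.9% of ZNF200, the largest covered share among the 8 genes. TASOR2 KO had no peak at ZNF200, and its nearest lay 57244 bp from the gene.

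ZNF597, the imprinted gene at the other end of the cluster (gene ID 146434, chr16:3432414-3443504, minus strand), showed the same arrangement. A TASOR KO peak from 3440393 to 3446917 (fold 4.16, rank 67) covered its start, and a separate one from 3429771 to 3433559 (fold 4.15, rank 71) covered its transcript end. They covered 38.4% of the gene. The start peak also covered the start of NAA60, an N-terminal acetyltransferase gene that begins 107 bp away on the opposite strand. No TASOR2 KO peak lay nearer than 23286 bp to ZNF597.

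ZSCAN32 (gene ID 54925, chr16:3382085-3401004, minus strand) and ZNF174 (gene ID 7727, chr16:3401215-3409364, plus strand) are transcribed away from each other, with starts 211 bp apart. ZNF174 encodes a SCAN protein first described as a repressor of growth factor promoters. A single TASOR KO peak, 3399807 to 3402152 (fold 3.92, −log10 q 1.96, rank 88), covered both starts, so these 2 genes are not independent in any count. Each gene then had its own TASOR2 KO peak at the far end. In ZSCAN32 it lay at 3382658 to 3384599 (fold 4.05, rank 86 of 264), 573 bp short of the transcript end and 16.4 kb from the start. In ZNF174 it lay at 3408355 to 3409128 (fold 4.14, rank 92), 236 bp short of the end and 7.14 kb from the start. The ZSCAN32 peak also lies in the noncoding gene LOC105371059, annotated on the plus strand, and peaks carry no strand.

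ZNF263 (gene ID 10127, chr16:3283491-3301401, plus strand) encodes a protein with SCAN and KRAB-related domains. Its start was covered by a TASOR KO peak from 3281461 to 3284490 (fold 3.27, −log10 q 0.934, rank 178). The TASOR2 KO peak, 3292402 to 3296614 (fold 3.79, −log10 q 0.855, rank 182 of 264), lay inside the gene, from 8.91 kb to 13.1 kb after the start, and covered 23.5% of it. A further TASOR KO peak lay 3858 bp beyond the transcript end of ZNF263. That peak belongs by position to the start of ZNF75A.

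ZNF75A (gene ID 7627, chr16:3305497-3323465, plus strand) was the gene where the lists came closest. A TASOR KO peak from 3305259 to 3306502 (fold 3.49, −log10 q 1.14, rank 156) covered its start, a second annotated start at 3306212, and the start of TIGD7, a gene derived from a Tigger transposon that begins 67 bp away on the opposite strand. Further along the gene, a TASOR KO peak at 3316568 to 3317808 (fold 3.45, −log10 q 0.714, rank 232) and a TASOR2 KO peak at 3319424 to 3320353 (fold 3.68, −log10 q 0.709, rank 233 of 264) lay 1616 bp apart. The first stands near the middle of its list and the second among the weaker peaks of its own. Elsewhere in the cluster the smallest distance between peaks of the 2 lists was 6203 bp, in ZNF174.

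The window of 5 kb did not decide which genes had peaks, since every member with a peak of a list within 5 kb had one in the body itself. The outermost peak inside the window was the one 3858 bp from ZNF263. The first ones outside it were TASOR2 KO peaks 7351 bp from ZSCAN32 (the peak in ZNF174) and 8883 bp from ZNF75A (the peak in ZNF263).

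**Figure D2:**
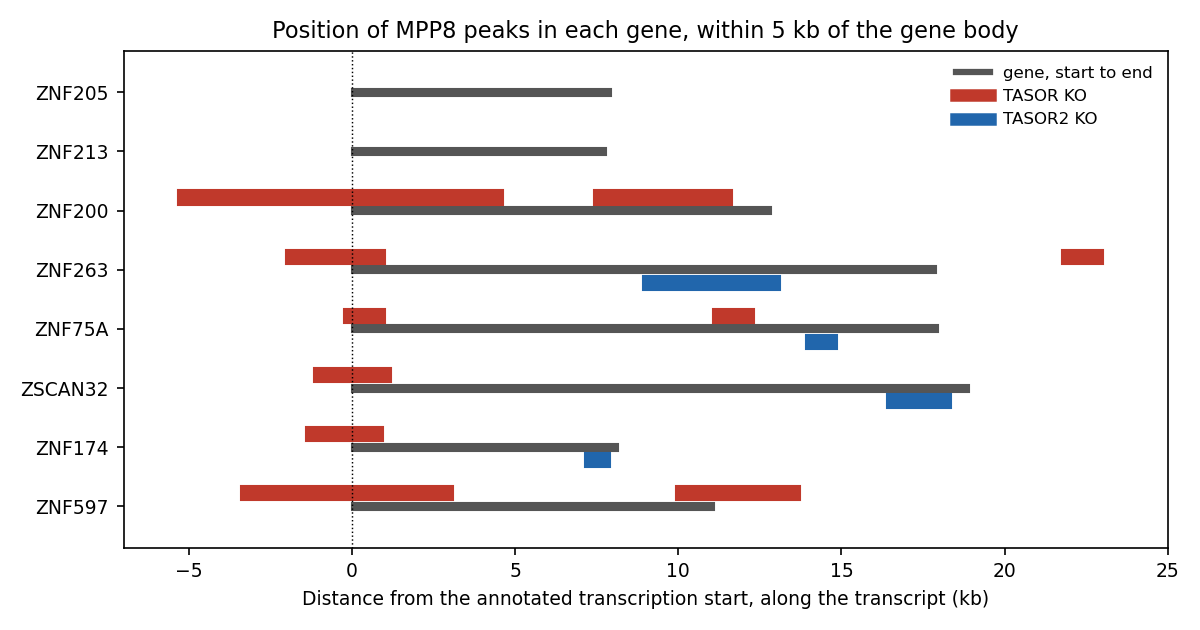
Peaks in the body of each gene or within 5 kb, drawn along the transcript (x axis, kb from the annotated start, negative upstream; 1 row per gene). Red bars (TASOR KO) cross the start of 6 genes and blue bars (TASOR2 KO) cross none, lying 7.14 to 16.4 kb after it.

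By gene, the start was covered by a TASOR KO peak in 6 of 6 genes with a peak of that list, through 5 peaks. The centres of these peaks lay between 0.516 kb upstream and 0.383 kb downstream of the start. The other 3 TASOR KO peaks in gene bodies were centred at 65.1% to 106.7% of the gene's length. TASOR2 KO peaks covered the start in 0 of 4 genes and were centred at 61.5% to 92.3% of the gene's length. They lay within 5 kb of the transcript end in 4 of 4, within 1 kb of it in 2 and over it in 0. TASOR KO peaks lay within 5 kb of the transcript end in 3 of 6 genes (ZNF200, ZNF263 and ZNF597). ZNF263 counts there only through the ZNF75A start peak, 3858 bp beyond its end. The 3′ TASOR KO peak of ZNF75A lay 5657 bp from the end and is not counted. The 3′ position was thus occupied in both lists, in TASOR KO at ZNF200 (q 0.107), ZNF75A (q 0.193) and ZNF597 (q 0.00342). At ZNF200 and ZNF597 the TASOR2 KO list had no peak, and at ZNF75A it had the neighbouring one described above.

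The other zinc finger genes showed the same direction. Among 453 with a start in the RefSeq promoter table, 55 had a TASOR KO peak in the body or within 5 kb, and the start was covered in 29 of them (52.7%, exact Clopper-Pearson 95% interval 38.8 to 66.3, which covers counting error only and treats genes as independent although some share a peak). Of 77 with a TASOR2 KO peak, it was covered in 0 (upper bound 4.68%). The transcript end lay within 5 kb of a peak in 16 of the 55 (29.1%, 17.6 to 42.9) and in 59 of the 77 (76.6%, 65.6 to 85.5). Covered starts and ends within 5 kb are unlike measures. With 5 kb allowed at the start as well, it was 37 of the 55 (67.3%) and 6 of the 77 (7.79%). The end itself was covered in 4 of the 55 (7.27%) and 13 of the 77 (16.9%). No interval is given for the cluster, whose few genes were chosen for their peaks and in part share them. Over all 15843 protein-coding genes with an annotated start, with or without a peak, TASOR KO peaks covered 0.581% of starts (92 genes). TASOR2 KO peaks covered 0.00631% (1 gene). Transcript ends lay within 5 kb of a peak in 0.252% (40 genes) and 0.631% (100 genes). These are not shares of genes with a peak and cannot be set beside those above. For scale, 246 of 20037 protein-coding genes had a TASOR KO peak and 206 a TASOR2 KO peak. The same direction was thus seen over all protein-coding genes, but these counts include the zinc finger genes above. Of the 92 genes with a start under a TASOR KO peak, 29 were other zinc finger genes and 6 were members of the cluster. Of the 100 with an end near a TASOR2 KO peak, 59 and 4 were. No count without them was made. Whether the cluster differs from other zinc finger genes was not tested.

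**Figure D3:**
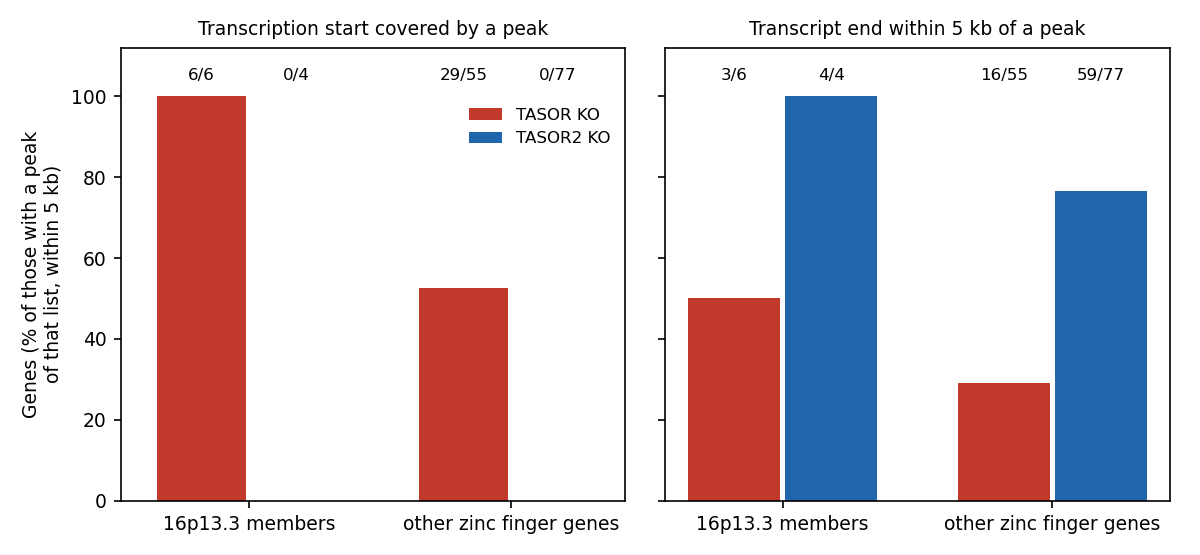
Share of genes with a peak of each list (y axis, percent) whose transcription start is covered (left) or whose transcript end lies within 5 kb of a peak (right), for the 16p13.3 genes and the other zinc finger genes; bars are shares in these 2 libraries, and the counts stand above. Red bars (TASOR KO) are higher at starts (6 of 6 and 29 of 55) and blue bars (TASOR2 KO) at ends (4 of 4 and 59 of 77). Red bars at ends stand at 3 of 6 and 16 of 55, and blue bars at starts at 0 of 4 and 0 of 77. The panels use unlike distances, so bars can be compared only within a panel.

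The sequences upstream of or between the starts under the 5 TASOR KO start peaks are shown because TASOR KO peaks and no TASOR2 KO peaks lie over them. They come from the RefSeq promoter table (GRCh38.p14). Capitals mark matches on either strand to GGGCGG (the GC box of SP factors), CCAAT (bound by NF-Y), CCGGAAGT (an ETS site) or TGACGTCA (the cAMP response element). TATAAA, GCATGCGC (part of the NRF1 site) and CACGTG (an E-box) were also searched. ZNF200 is the 250 bases upstream of its start, chr16:3235159-3235408, minus strand, and ZNF263 likewise, chr16:3283241-3283490, plus strand. ZNF75A is the interval between the starts of TIGD7 and ZNF75A, chr16:3305431-3305496. ZSCAN32-ZNF174 is the interval between those starts, chr16:3401005-3401214, and ZNF597-NAA60 is chr16:3443505-3443610, each on the plus strand.
ZNF200: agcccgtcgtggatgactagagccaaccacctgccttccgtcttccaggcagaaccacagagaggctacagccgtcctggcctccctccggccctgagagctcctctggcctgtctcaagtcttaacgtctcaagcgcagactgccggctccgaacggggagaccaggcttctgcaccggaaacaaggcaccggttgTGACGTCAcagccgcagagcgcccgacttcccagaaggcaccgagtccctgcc
ZNF263: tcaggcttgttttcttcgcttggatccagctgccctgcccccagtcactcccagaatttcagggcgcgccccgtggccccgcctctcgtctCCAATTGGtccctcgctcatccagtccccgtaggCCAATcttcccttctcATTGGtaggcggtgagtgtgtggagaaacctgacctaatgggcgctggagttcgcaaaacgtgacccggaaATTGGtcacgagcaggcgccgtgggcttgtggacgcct
ZNF75A: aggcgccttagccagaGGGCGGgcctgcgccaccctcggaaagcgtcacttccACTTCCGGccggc
ZSCAN32-ZNF174: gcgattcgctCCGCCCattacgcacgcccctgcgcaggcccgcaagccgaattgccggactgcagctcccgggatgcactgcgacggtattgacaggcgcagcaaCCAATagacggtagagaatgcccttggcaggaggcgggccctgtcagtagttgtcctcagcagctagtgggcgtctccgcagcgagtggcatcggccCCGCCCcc
ZNF597-NAA60: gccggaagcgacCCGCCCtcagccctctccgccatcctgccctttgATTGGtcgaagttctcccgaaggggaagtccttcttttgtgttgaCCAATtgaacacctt

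The share of G and C was 63.6% at ZNF200, 60.4% at ZNF263, 71.2% at ZNF75A, 66.2% at ZSCAN32-ZNF174 and 56.6% at ZNF597-NAA60. They held 17 CpG dinucleotides in the 250 bases at ZNF200 and likewise at ZNF263, 7 in 66 bases at ZNF75A, 20 in 210 bases at ZSCAN32-ZNF174 and 6 in 106 bases at ZNF597-NAA60. In the table's 300-base promoters (250 before to 50 after each start, 9 of them for the 8 genes), the start regions under TASOR KO peaks held 13 to 31 CpGs. Those of ZNF205 and ZNF213, which had no peak, held 13 and 22. The median was 21 over 602 promoters of zinc finger genes and 14 over all 35116. In these 300-base promoters the share of G and C was 53.3% to 67.3% at the covered starts. It was 60.7% at ZNF205 and 57.3% at ZNF213, within that range. Its median was 61.3% in zinc finger and 58.7% in all promoters. TGACGTCA was found in ZNF200 alone of the 9 (1.85% of all promoters hold it), and CCGGAAGT in 4 of 9, those of ZNF213, ZNF75A, ZSCAN32 and ZNF174 (4.14% of all). The promoters of ZSCAN32 and ZNF174 overlap, so a match can count for both. GGGCGG and CCAAT were found in 5 of 9 each (45.0% and 34.6% of all), and TATAAA, GCATGCGC and CACGTG in 0 of 9 (11.5%, 3.05% and 7.26%). None of the 7 motifs was found in every gene with a TASOR KO peak, and of the 4 found at all, each but the one in ZNF200 was also held by ZNF205 or ZNF213. A match describes these letters and not a bound site.

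Of the 6 genes with a covered start, 4 (ZNF75A, ZSCAN32, ZNF174 and ZNF597) had an opposite start within 1 kb upstream, counting only genes in the promoter table. Among the other zinc finger genes 6 of 29 with a covered start did (20.7%) and 80 of 424 without (18.9%). These are lower counts, since a partner without an entry in that table has no strand here. ZNF213-AS1, which ends 147 bp before the start of ZNF213, is such a gene, so ZNF213 cannot be placed. By that table, 0 of the 2 cluster genes without a covered start (ZNF205 and ZNF213) had an opposite start within 1 kb. The nearest one upstream of ZNF205 was that of ZSCAN10, 13292 bp away. ZSCAN32 and ZNF174 are each other's partner, so this pair enters the 4 once for each gene.

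By the authors' q, 8 of the 9 TASOR KO peaks of the cluster lay in the upper part of their list (213 of 427 peaks), and 2 of the 4 TASOR2 KO peaks did (132 of 264). Among TASOR KO peaks, 5 of the 9 had a q of 0.05 or less (138 of all 427), namely the start peaks of ZNF200, ZSCAN32-ZNF174 and ZNF597, the end peak of ZNF597 and a peak at LINC00921 between the genes. Among TASOR2 KO peaks 0 of the 4 did (79 of all 264), whose smallest q were 0.0531 in ZSCAN32 and 0.0571 in ZNF174. Ranks ran from 2 to 232 (median 88) of 427 and from 86 to 233 (median 137) of 264. The fold had a median of 3.92 in both, against 3.35 over the TASOR KO and 3.92 over the TASOR2 KO list. Every statement on TASOR2 KO peaks here therefore rests on peaks with a q above 0.05, and so do the TASOR KO start peaks at ZNF263 and ZNF75A and the 3′ peaks at ZNF200 and ZNF75A.

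**Figure D4:**
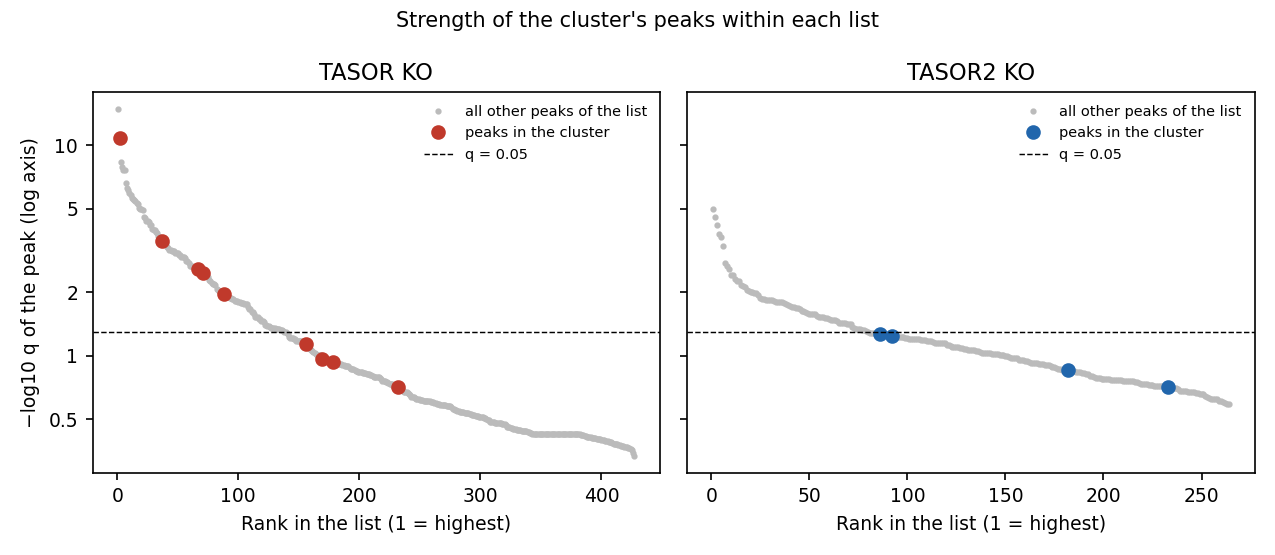
The authors' −log10 q of every peak (y axis, log scale) by rank in its list (x axis), with the cluster's peaks in colour and a dashed line at a q of 0.05. In TASOR KO 5 of 9 coloured points lie above the line, in TASOR2 KO 0 of 4.

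The names of the peaks carry numbers that follow position along the genome throughout both lists, with gaps, so each list is part of a longer numbered one. How the deposited peaks were chosen from it is not given in the labels or files, and every share of genes, position and rank above describes the chosen peaks. Across the TASOR KO list 427 of 11786 numbers are present (3.62%), and across the TASOR2 KO list 264 of 1512 (17.5%). In the cluster the numbering is nearly whole. TASOR KO peaks are 4402 to 4411 with 9 of 10 numbers present, and the missing one, 4405, falls between 3266102 and 3281461, where 0 TASOR2 KO peaks lie. TASOR2 KO peaks are 726 to 729 with no gap, preceded by 725 at 2762560 to 2767008 and followed by 730 at 10469638. If the numbers count the peaks first found in order, then no further TASOR2 KO peak was numbered between 2767008 and 10469638, which includes ZNF205, ZNF213, ZNF200 and ZNF597. On the same reading, no TASOR KO peak was numbered where a TASOR2 KO peak of the cluster lies. Numbers 4400 and 4401 fall between position 101337706 on chromosome 15 and the first peak in ZNF200. An unlisted TASOR KO peak at ZNF205 or ZNF213 therefore cannot be told apart from one elsewhere in that stretch, on either chromosome.

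Genes near the cluster shared some of these peaks. Within 100 kb of the span lie 56 other annotated genes, 18 of them protein-coding. A TASOR KO peak in the body or within 5 kb was found for 5 of the 56 (MEFV, LINC00921, TIGD7, LOC105371059 and NAA60). A TASOR2 KO peak was found for 4 (TIGD7, OR2C1, RPL7L1P19 and LOC105371059). Among the 18 protein-coding genes it was 3 and 2, against 1.23% and 1.03% of all protein-coding genes. Except at LINC00921, each of these peaks was already counted at a gene of the cluster. The counts therefore follow from the choice of the cluster. At MEFV, which encodes the inflammasome sensor pyrin, the peak was the wide one at ZNF200, 1530 bp from the gene. The TASOR KO peak at LINC00921 (3263301 to 3266102, fold 4.58, −log10 q 3.50, rank 37) is the one peak of the span not within 5 kb of a zinc finger gene. The SCAN-domain gene ZSCAN10, next to ZNF205, had none.

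Among 24 runs of 5 or more ZNF, ZSCAN or ZKSCAN genes lying less than 300 kb apart, the run with this cluster (ZSCAN10 to ZNF597, 9 genes) had a TASOR KO peak at 66.7% of its genes and a TASOR2 KO peak at 44.4%. The TASOR KO share was the highest of the 24, equal to that of the run ZNF317 to ZNF846, and 2 runs had a higher TASOR2 KO share. By the sum of the differences in both shares over the 2 libraries, the runs most like it all lay on chromosome 19: ZNF317 to ZNF846 (12 genes, 66.7% and 25%), ZNF575 to ZNF180 (23 genes, 56.5% and 21.7%) and ZNF175 to ZNF331 (41 genes, 29.3% and 53.7%). Of the genes of these runs with an annotated start, TASOR KO peaks covered it in 4 of 10, 7 of 19 and 6 of 34. TASOR2 KO peaks covered it in 0, 0 and 0. These peaks covered 1 of 15843 protein-coding starts, so a count of 0 does not set the runs apart. The other run on chromosome 16, ZNF48 to ZNF646 with 11 genes, had no peak in either list. The 16p13.3 cluster was chosen for its peaks, so its place in this order is a description.

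**Figure D5:**
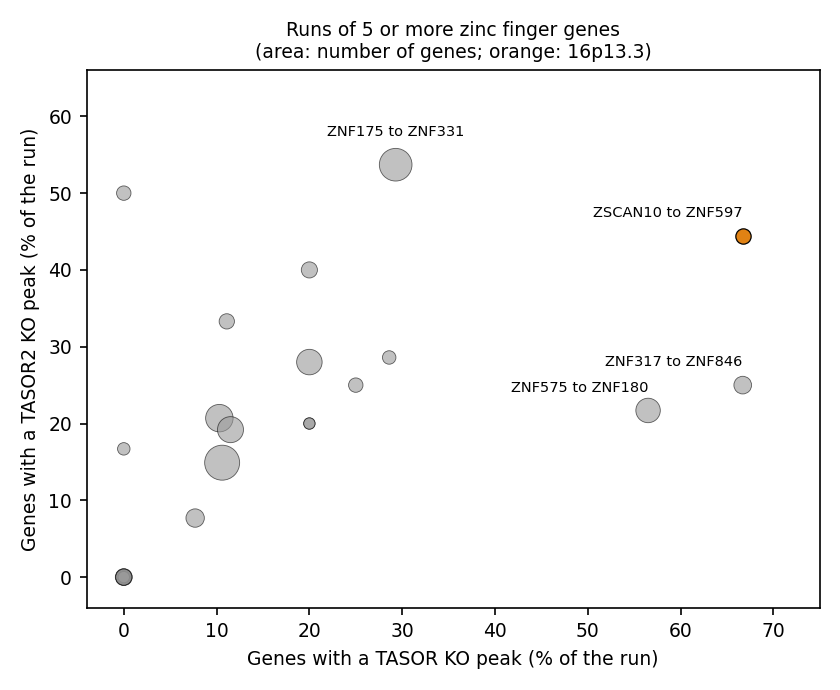
Each circle is a run of 5 or more zinc finger genes, placed by the share of its genes with a TASOR KO peak (x axis, percent) and with a TASOR2 KO peak (y axis, percent), with area in proportion to the number of genes. The orange circle, the 16p13.3 run, lies at 66.7% and 44.4%.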

How the data were processed

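MPP8 ChIP-seq peak lists of 2 samples (TASOR KO and TASOR2 KO, grouped by title) were used. Per the labels' protocols, fixed chromatin was digested with micrococcal nuclease and sonicated. The submitters' processing notes name Bowtie2 2.3.5.1, deepTools and MACS2 and the builds hg38 and mm9. For the control, the thresholds and the role of the mouse spike-in, no setting is given in the sources used here. Both deposited lists have no header and 9 columns in MACS2's broad-peak order, read as score, fold enrichment (a ratio over the control or background the peak caller used), −log10 p and −log10 q, all the authors' own values per peak. Ranks within a list followed −log10 q, with −log10 p for ties, and not the score.

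Positions were made 1-based. Gene spans came from a RefSeq gene table of GRCh38.p14, and strand and starts from its promoter table (461 of 545 zinc finger genes and 8 of 8 members matched). Not analysed here were exons, proteins and the bases under peaks. A shared base sufficed for overlap. The overlap step was tested on simulated data. Members and gene lists were chosen with earlier results of these data known. Genes named are the 8 members, neighbours and SCAN-domain genes with a peak, and the 3 most like runs. ZSCAN10, ZNF48 and ZNF646 were named after their values were seen. Software was Python 3.11.15 with scipy 1.17.1, pandas 2.3.3, matplotlib 3.10.9 and numpy 2.4.6.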

Additional observations from a re-analysis of the deposited data

How the results depend on the processing

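Of 43 alternative counts over 7 results, 37 stayed within 1.5 times the reported count. They include every count under the gene body alone, windows of 1 kb and 10 kb, the smaller of the largest q values as threshold for both, 264 peaks from each list, the peak centre in place of any overlap, and other distances to the start. Some of these could not change. The TASOR2 KO list holds 264 peaks, so taking 264 left its counts as they were. The shared q threshold likewise removed no peak from the list that set it. Also among the 37 are 3 counts at a q of 0.05 or less, 1 of them a count of 0 that could not fall. The 37 further include 2 counts in the higher-scoring part of the TASOR KO list. The other 6 came from those stricter thresholds. At a q of 0.05 or less, TASOR KO peaks at the genes fell from 8 to 4 and TASOR2 KO peaks from 4 to 0, so that 0 genes had a TASOR2 KO peak and 0 had peaks of both lists. In the higher-scoring part of the TASOR2 KO list, 2 peaks at 2 genes were left. The 6 genes with a TASOR KO peak at the start became 4 at a q of 0.05 or less, without ZNF263 and ZNF75A. The cause is the threshold itself, as fewer peaks enter. No paired analysis was possible because there was a single library per knockout, which also means that none could be left out. Depth per library is unknown.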

Other observations

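Of 51 genes outside the cluster that encode SCAN-domain proteins, listed from textbook knowledge, 0 lay over or within 5 kb of a TASOR KO peak (1.23% of protein-coding and 12.8% of zinc finger genes did) and 3 over or near a TASOR2 KO peak (5.88%, against 1.03% and 16.5%). These were ZSCAN21 on chromosome 7 (peak 2188 bp from the gene, fold 4.28, rank 40 of 264), ZNF197 on chromosome 3 (fold 3.95, rank 110) and ZSCAN25 on chromosome 7 (fold 3.53, rank 255). Within 100 kb of the 16p13.3 cluster, 14 tRNA genes lie between ZNF213 and ZNF200, and 0 of them had a peak of either list within 5 kb. They lie in 1 stretch (3150674 to 3192060) and are not separate observations. With 1.23% and 1.03% of protein-coding genes at a peak, nothing is read from this 0.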
